A study of Oryctolagus cuniculus with 9 samples.

Results

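The untreated state of HA-VSMC, a cultured line named as vascular smooth muscle, was described from its 3 control samples, out of 9 samples in the series. The members are every sample whose title names it a control. All 3 carry the cell line tag HA-VSMC, the concentration tag WT and, like the treated samples, the treatment tag estrogen. Whether they received the DMSO in which β-estradiol was dissolved is not stated in the labels. Cells were kept in RPMI medium with fetal bovine serum and, per the treatment protocol, harvested after 48 h. The 6 samples given β-estradiol at 50 nM or 250 nM were not used, so no contrast between groups is made and each level is a description. The labels assign the line to the rabbit (Oryctolagus cuniculus), whereas a human aortic smooth muscle line is also known by this name, and the species was not checked here. Nothing in the labels says that the 3 samples came from separate cultures, so the spread between them may be technical. The series was made to study how estrogen acts in adenomyosis, the growth of endometrium within the uterine muscle.

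A smooth muscle cell of a vessel wall contracts through α-actin, smooth muscle myosin heavy chain and their regulators, whose genes are driven by serum response factor with its cofactors myocardin and the myocardin-related factors. In culture with serum such cells are known to leave this state, to lose the late contractile proteins, and to divide and secrete collagen, fibronectin and matrix proteases. The genes below are therefore ordered from the contractile apparatus over other lineages, matrix and receptors to growth.

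Levels are the deposited FPKM values (fragments scaled by transcript length and sequencing depth), which allow genes to be compared per length. The lengths used were not given and were not checked. An error in a length would shift the level of that gene and every ratio between genes that uses it. Means are given ± SD over n = 3, and values of single samples stand in the order control 1, control 2, control 3. A gene is called expressed here at 1 FPKM or more in each sample, abundant at 100 FPKM or more in each, and undetected where its count was 0 in all 3. The table held 19291 genes, of which 13318 had a symbol and 5973 only an identifier. The identifier-only genes took 24.9% to 27.6% of summed FPKM and could not be named. Count totals were 61786969 to 65359526 units, or about 15446742 to 16339882 fragments under the assumption of 4 units per fragment. A count of 0 therefore allows up to 0.184 to 0.194 CPM in a sample, by a limit of 3 fragments that covers counting error only.

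Of all genes, 10160 were expressed (52.7%), and of the genes with a symbol 8188 were (61.5%). Of the genes with a symbol, 461 were abundant (3.46%) and 2453 were undetected (18.4%). These shares are the background for every list below. A level of 1000 FPKM or more in each sample was reached by 54 genes, 38 of them with a symbol. The 10 genes of highest mean held 14.0% ± 1.16 of summed FPKM, the top 50 held 28.9% ± 0.982, and the top 100 held 37.5% ± 0.565. Of the top 50, 15 had no symbol.

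The most abundant named transcripts came from the mitochondrial genome, from protein synthesis and from the secreted matrix. Of the 25 named genes of highest mean FPKM, 13 were the protein-coding genes of the mitochondrion, which encode subunits of the respiratory chain and ATP synthase. COX1, a cytochrome oxidase subunit, led at 10163, 10410.5 and 10448 FPKM (mean 10340.4 ± 155). EEF1A1, the translation elongation factor that brings transfer RNA to the ribosome, stood at 7605, 7553 and 7651 FPKM (mean 7603 ± 48.9). Its 3 values lay within a narrow range, whereas ATP8, a small ATP synthase subunit, was at 8549, 13429.9 and 8805 FPKM (mean 10262 ± 2747) and was highest in control 2. ATP8 overlaps ATP6, and ND4L overlaps ND4, on mitochondrial DNA, so counts in these pairs could have been shared.

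FN1, which encodes fibronectin, the glycoprotein that links integrins to collagen, was the most abundant nuclear gene of the matrix at 7037, 8389 and 7361 FPKM (mean 7596 ± 706). It alone took 5.85% to 6.95% of all counts, with the highest share in control 2. SPARC, a collagen-binding glycoprotein, followed at 6008, 6383 and 6092 FPKM (mean 6161 ± 197). VIM, the intermediate filament protein of mesenchymal cells, was at 3851, 3656 and 3868 FPKM (mean 3792 ± 118). COL1A2, 1 of the 2 chains of type I collagen, was at 2837, 2655 and 2826 FPKM (mean 2772 ± 102), and its partner COL1A1 at 1918, 1891 and 1989 FPKM (mean 1933 ± 50.5). Other genes among the 25 were RPL4, a ribosomal protein, at 2483 ± 76.3 FPKM, FTL, the light chain of the iron store ferritin, at 2196 ± 237, LGALS1, a galectin, at 2153 ± 138, TGFBI, a TGF-β-induced matrix protein, at 2140.4 ± 46.7, MYL6, a myosin light chain, at 2047 ± 235, and CTGF, a matricellular growth regulator, at 1915 ± 98.6. The order is loose: for 20 of the 24 neighbouring pairs the ranges of the 3 values overlapped.

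**Figure D1:**
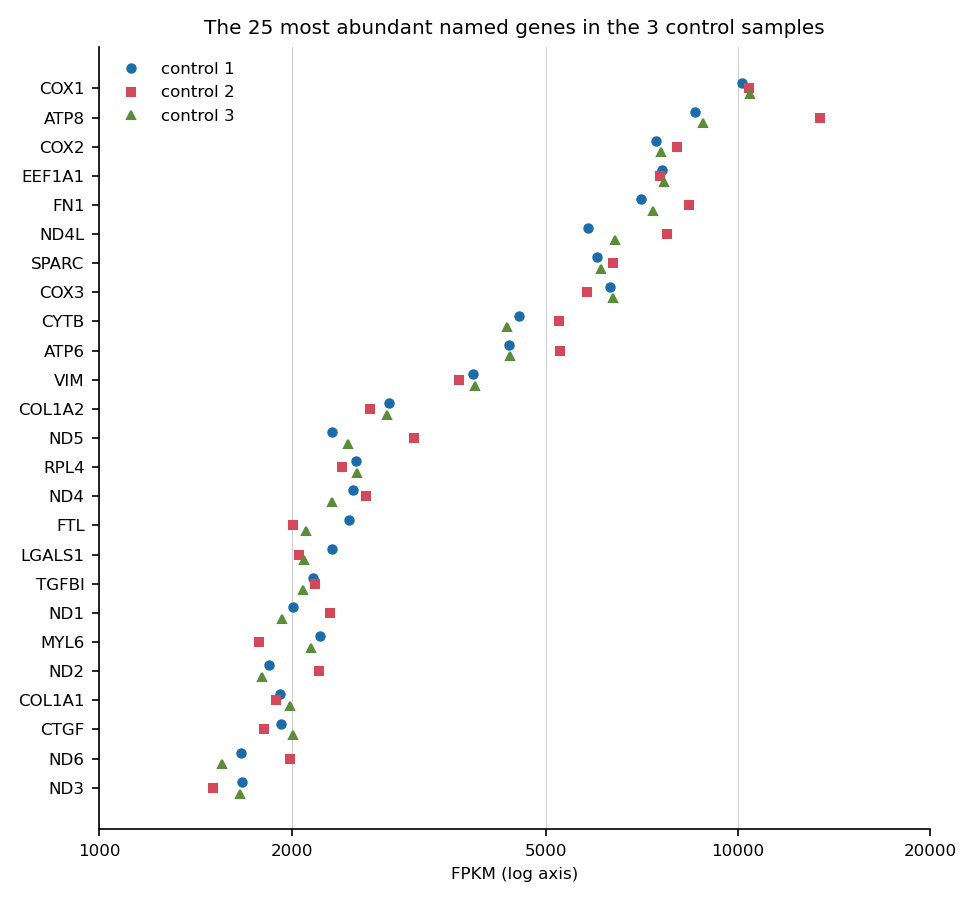
FPKM (log axis) of the 25 named genes of highest mean level, 1 symbol per control sample. COX1, EEF1A1 and SPARC show 3 close values, while control 2 stands above the others for ATP8, FN1 and most ND genes.

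Of 34 genes of the smooth muscle contractile list, 28 had a row and 22 were expressed, 12 of them abundant. The median level over the 28 was 27.1 FPKM. ACTA2, the smooth muscle α-actin, was at 1375, 1292 and 1298 FPKM (mean 1322 ± 46.0). TPM2 and TPM1, the tropomyosins that lie along the actin filament, were at 994 ± 50.0 and 484 ± 14.1 FPKM, a ratio of 2.05 ± 0.058 within samples. MYL9, the regulatory light chain of myosin, was at 587, 511 and 516 FPKM (mean 538 ± 42.7). CSRP1, a LIM protein of the cytoskeleton, was at 474 ± 23.3 FPKM, and CALD1, caldesmon, which restrains actomyosin, at 415 ± 14.3. VCL and TLN1, vinculin and talin of the adhesion sites, were at 129 ± 6.59 and 148 ± 2.41 FPKM.

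MYH11, the smooth muscle myosin heavy chain, was at 4.49, 5.10 and 4.37 FPKM (mean 4.65 ± 0.393). ACTA2 thus stood at 286 ± 28.3 times the level of MYH11 per length within samples, and MYH10, the non-muscle myosin heavy chain, at 116 ± 6.12 times that level. SMTN, smoothelin, a marker of contractile cells, was at 30.5, 27.5 and 27.8 FPKM (mean 28.6 ± 1.67). MYLK, the kinase that phosphorylates the myosin light chain, was at 0.474, 0.399 and 0.370 FPKM (mean 0.414 ± 0.0537), LMOD1, an actin nucleator of smooth muscle, at 0.367, 0.553 and 0.433 FPKM (mean 0.451 ± 0.0946), and neither reached 1 FPKM in any sample. ACTG2, the enteric and uterine smooth muscle actin, was at 0.0509, 0.0543 and 0.0874 FPKM (mean 0.0642 ± 0.0201). KCNMB1, a potassium channel subunit of smooth muscle, was at 0.122, 0.0323 and 0 FPKM (mean 0.0513 ± 0.0629). DES, desmin, the muscle intermediate filament protein, had a count of 0 in all 3 samples.

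Among the drivers of contractile genes, SRF, the serum response factor, was at 47.0, 55.0 and 47.2 FPKM (mean 49.7 ± 4.53). Its cofactors MRTFA and MRTFB were at 25.6 ± 1.35 and 10.3 ± 0.455 FPKM. MYOCD, the smooth muscle cofactor myocardin, was at 0.318, 0.443 and 0.463 FPKM (mean 0.408 ± 0.0788), under 1 FPKM in each sample. No row by symbol was used for TAGLN, CNN1, CNN2, FLNA, SYNM and AOC3, so these markers are not analysed here. Of the 6 actin isoforms, ACTB and ACTG1 likewise had no row used, ACTA1 of skeletal muscle was counted in control 1 alone at 0.0177 ± 0.0306 FPKM over the 3 samples, and ACTC1 of heart was undetected. The actins are near-identical in their coding parts, and how fragments were divided between them is not known from the labels. ACTA2 and FN1, the markers given for these cells, were thus abundant and 22 contractile genes were expressed, while DES was undetected and MYLK, LMOD1 and MYOCD lay under 1 FPKM in each sample.

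Genes known to mark smooth muscle cells that have left the contractile state were mostly expressed, 14 of the 17 with a row. This share of 82.4% stood beside 78.6% of the contractile list and 61.5% of genes with a symbol. Of the 17, 3 were abundant, and their median was 7.89 FPKM, beside 12 and 27.1 FPKM for the contractile list. S100A4, a calcium-binding protein, was at 857, 585 and 767 FPKM (mean 736 ± 138), lowest in control 2. MYH10 was at 515, 562 and 534 FPKM (mean 537 ± 23.4). MGP, an inhibitor of vascular calcification, was at 73.7 ± 6.13 FPKM, LGALS3, a galectin of macrophage-like smooth muscle, at 54.5 ± 8.29, SPP1, osteopontin, at 39.5 ± 4.69, and KLF5, a growth-linked transcription factor, at 13.2 ± 1.67. CRABP1, a retinoic acid binding protein, was undetected, and TNFRSF11B, osteoprotegerin, was counted only in control 1.

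The mesenchymal and fibroblast list had 23 of 26 members expressed and none undetected. PRRX1, a homeobox factor of mesenchyme, was at 219, 254 and 229 FPKM (mean 234 ± 18.2), ENG, the TGF-β coreceptor endoglin, at 149, 153 and 144 FPKM (mean 149 ± 4.65), and DDR2, a collagen receptor kinase, at 115, 127 and 119.8 FPKM (mean 121 ± 6.35). PDGFRB, the β receptor of platelet-derived growth factor, was at 68.3, 72.3 and 67.0 FPKM (mean 69.2 ± 2.76), whereas PDGFRA, the α receptor, was at 0.440, 0.306 and 0.343 FPKM (mean 0.363 ± 0.0689). PDGFRB was at 196 ± 40.4 times the level of PDGFRA within samples. The fibroblast markers DCN, LUM, THY1 and POSTN, which encode decorin, lumican, a surface glycoprotein and periostin, were at 76.2 ± 2.94, 5.65 ± 0.439, 2.60 ± 0.0710 and 1.20 ± 0.335 FPKM. POSTN was under 1 FPKM in control 1 and above it in the other 2 samples. CD34, a surface marker of adventitial fibroblasts and endothelium, was at 0.0406 ± 0.0305 FPKM.

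Markers of other lineages mostly lay under 1 FPKM, with expressed exceptions in each list. In bulk RNA, fewer cells of a type and less RNA per cell cannot be told apart. Of 11 pericyte markers with a row, 3 were expressed, PDGFRB, NOTCH3 and CSPG4, and RGS5 and DES were undetected. Of 20 endothelial markers, 4 were expressed and 7 undetected, against 18.4% undetected among genes with a symbol. The 4 were ENG, FLT1, a vascular endothelial growth factor receptor at 15.0, 17.8 and 15.9 FPKM (mean 16.2 ± 1.43), FLI1, an ETS factor at 10.7 ± 0.251 FPKM, and PROX1, a factor of lymphatic endothelium at 6.63 ± 0.738 FPKM. The defining endothelial genes KDR, TEK and ERG were undetected, PECAM1 was at 0.211 ± 0.0736 FPKM and CDH5, the endothelial cadherin, at 0.0390 ± 0.0283. Summed over the list, endothelial markers reached 179 to 189.9 FPKM, most of it ENG.

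Of 24 epithelial markers with a row, 3 were expressed and 8 undetected. CLDN1, a tight junction claudin, was at 55.2, 55.8 and 55.3 FPKM (mean 55.4 ± 0.298), and KRT14, a basal keratin, at 38.1, 39.2 and 38.3 FPKM (mean 38.5 ± 0.618), both with close values in the 3 samples. KRT7 was at 2.16 ± 0.303 FPKM. EPCAM, KRT19, GRHL2 and ESRP1 were undetected, and CDH1, the epithelial cadherin, had counts only in control 1. The leukocyte list had 3 of 18 members expressed and 11 undetected. LCP1, an actin bundling protein of leukocytes, was at 90.3, 92.6 and 96.2 FPKM (mean 93.0 ± 2.96), CORO1A, coronin, at 42.8 ± 0.715, and GATA2 at 20.5 ± 0.739. The defining leukocyte genes SPI1, ITGB2, CSF1R and CD163 were undetected, and PTPRC had counts only in control 3.

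In the skeletal and cardiac muscle list, GATA4, a heart and gonad transcription factor, was the only expressed member of 19, at 7.89, 8.62 and 8.48 FPKM (mean 8.33 ± 0.386). MYOD1, MYOG, MYF5, NKX2-5 and TBX5 were undetected. The neural and glial list had 2 of 13 expressed, NES, the intermediate filament nestin, at 24.9 ± 1.44 FPKM, and MITF, the melanocyte factor, at 4.02 ± 0.809, with SOX10 and TYR undetected. The bone, cartilage and fat list had 6 of 14 expressed. SOX9, a chondrogenic factor, was at 82.2, 87.4 and 82.0 FPKM (mean 83.9 ± 3.02), RUNX2, an osteogenic factor, at 10.4 ± 0.728 FPKM, and BGLAP, osteocalcin, at 8.80 ± 1.14, whereas the bone phosphatase ALPL was at 0.0783 ± 0.0448. Of 11 endometrial stroma and decidual markers, 4 were expressed: WT1 at 11.1 ± 0.834 FPKM, WNT4 at 3.69 ± 0.964, HAND2 at 2.66 ± 0.375 and PGR. The decidual hormones PRL and IGFBP1 were undetected.

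**Figure D2:**
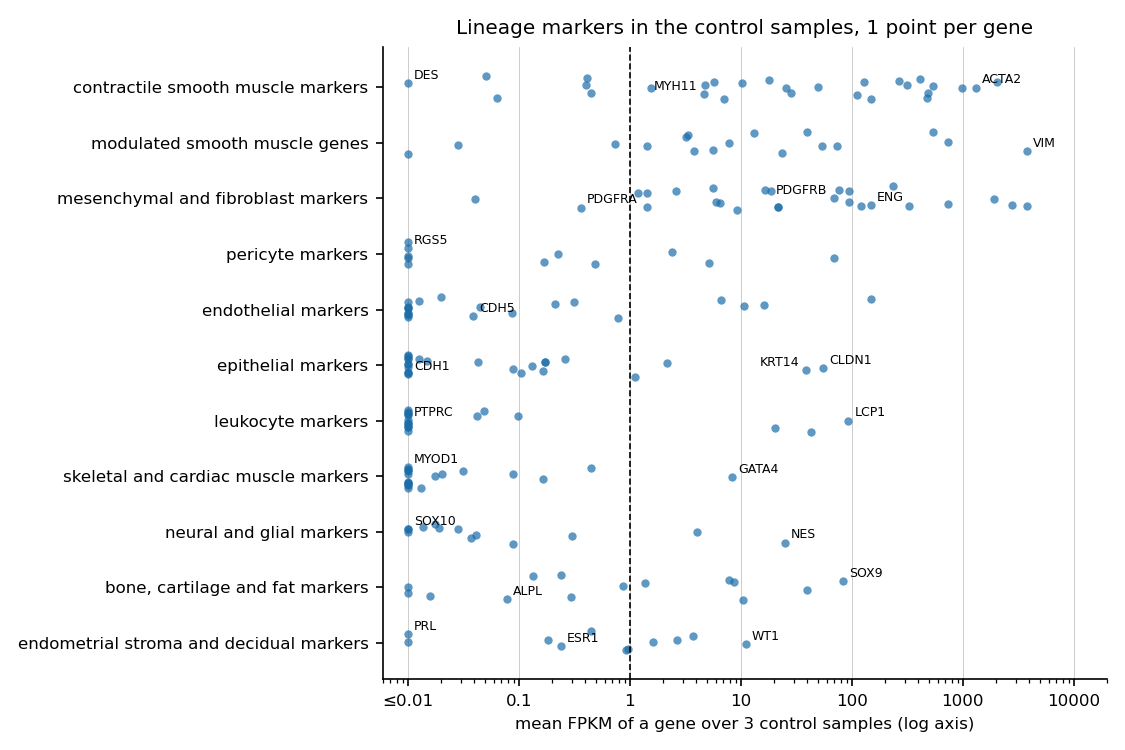
Mean FPKM over 3 control samples (log axis, values at or under 0.01 drawn at 0.01) of each gene in 11 marker lists, 1 point per gene, with the dashed line at 1 FPKM. Contractile, modulated and mesenchymal genes lie mostly right of the line, and those of the other lineages mostly left of it, with CLDN1, KRT14, LCP1, GATA4, NES and SOX9 as labelled exceptions.

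Collagens of the interstitial matrix dominated the collagen list, in which 13 of 18 members with a row were expressed and 8 were abundant. The list took 5.09% to 5.24% of all counts. COL1A2 was at 1.43 ± 0.039 times the level of COL1A1 within samples and at 2.38 ± 0.118 times that of COL3A1. COL3A1, the type III chain of elastic vessels, was at 1151, 1180.2 and 1159 FPKM (mean 1163 ± 15.3). COL5A2, a type V chain that sets fibril diameter, was at 848, 886 and 929 FPKM (mean 887 ± 40.7). The fibril-associated collagens COL12A1 and COL14A1 were at 788 ± 36.0 and 206 ± 9.57 FPKM, and COL6A2 of the microfibrils at 247 ± 9.25. The basement membrane chains COL4A1 and COL4A2, which are transcribed from a shared promoter region, were at 64.9 ± 3.45 and 67.1 ± 1.76 FPKM with overlapping ranges. COL8A1, a collagen of activated smooth muscle, was at 3.37 ± 0.359 FPKM. COL2A1 of cartilage was at 0.00747 ± 0.00648 FPKM, and COL13A1 and COL8A2 were under 1 FPKM in each sample.

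Every collagen processing gene with a row, 12 of 12, was expressed. PPIB, a prolyl isomerase of the collagen chaperone complex, was at 867, 743 and 813 FPKM (mean 808 ± 62.5), and P4HA2, a prolyl hydroxylase subunit, at 529, 516 and 544 FPKM (mean 529.6 ± 13.9). CRTAP and P3H1, partners in prolyl hydroxylation, were at 107 ± 3.89 and 79.3 ± 4.56 FPKM, PLOD1, a lysyl hydroxylase, at 66.9 ± 0.877, and BMP1, which trims procollagen, at 63.6 ± 1.19. The lowest was P4HA3 at 16.4 ± 0.488 FPKM. The elastic fibre list had 11 of 13 expressed. FBN1, fibrillin of the microfibrils, was at 316, 341 and 333 FPKM (mean 330.1 ± 12.7), while FBN2 was at 4.37 ± 0.155. All 5 lysyl oxidases, which crosslink collagen and elastin, were expressed, with LOXL3 at 269.7 ± 18.8, LOXL1 at 236 ± 13.1, LOXL2 at 172 ± 2.98, LOXL4 at 136 ± 7.40 and LOX at 94.5 ± 1.92 FPKM, so that LOXL3 was 2.86 ± 0.245 times LOX. MFAP4, an elastic fibre protein of vessels, was counted only in control 3. ELN, elastin itself, is not analysed here.

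The matrix glycoproteins had 25 of 33 members expressed and 11 abundant, and took 8.79% to 9.91% of counts. CYR61, a matricellular relative of CTGF, was at 868, 809 and 933 FPKM (mean 870.1 ± 61.8). Fibulins FBLN2 and FBLN5 were at 399 ± 11.4 and 145 ± 8.05 FPKM, EFEMP1 at 272 ± 15.6, and thrombospondins THBS1 and THBS2 at 264 ± 11.4 and 79.0 ± 2.46. Of the laminin chains, LAMC1, LAMB1, LAMB2 and LAMA4 were at 247 ± 8.43, 120.5 ± 2.30, 99.9 ± 5.13 and 48.0 ± 2.40 FPKM, whereas LAMA2 of muscle basement membrane was at 0.0205 ± 0.00741 and LAMA1 was counted only in control 2. TNC, tenascin of remodelling tissue, was at 3.81 ± 0.212 FPKM, and FN1 stood at 1996 ± 193 times that level within samples.

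**Figure D3:**
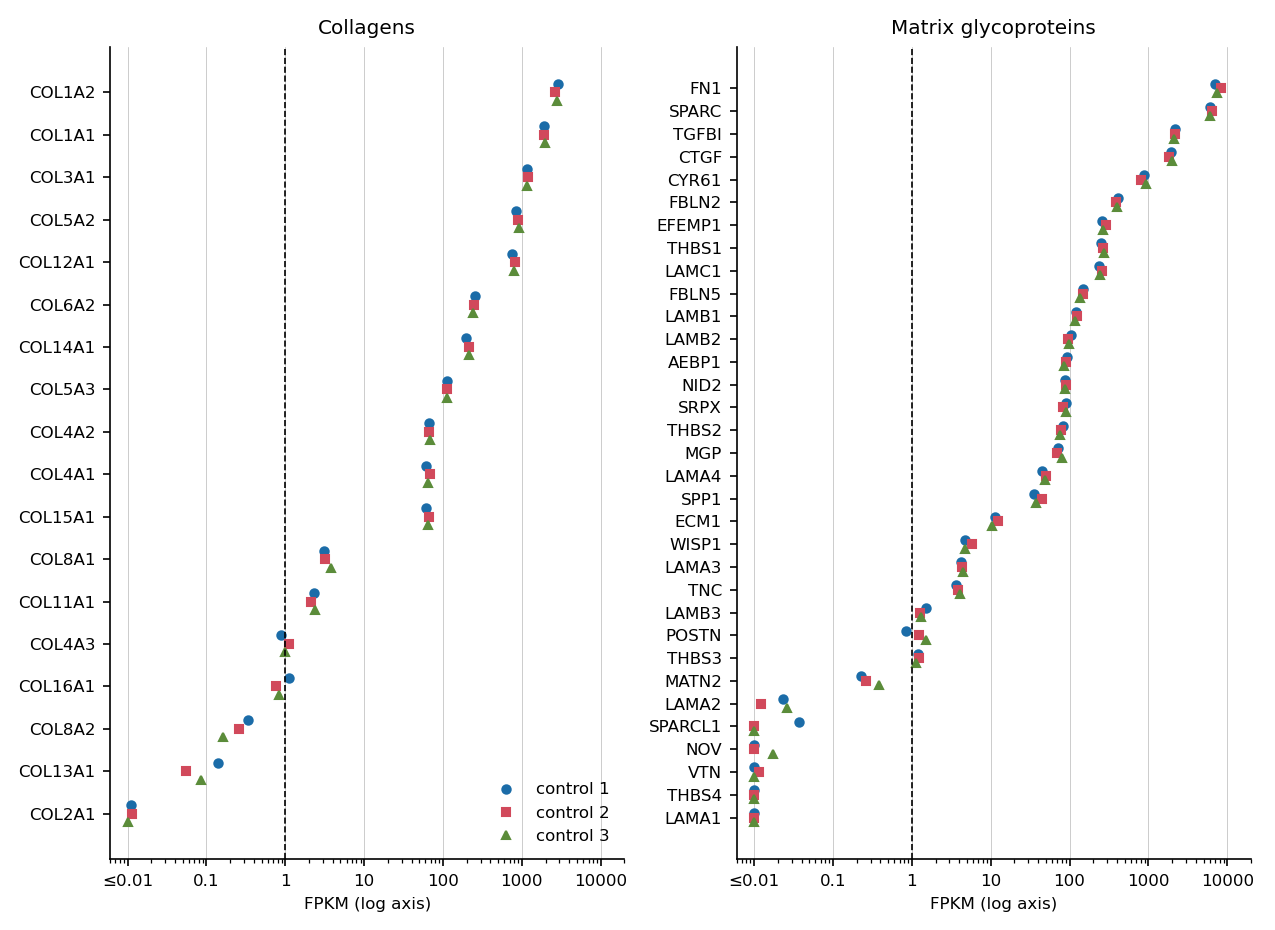
FPKM (log axis, values at or under 0.01 drawn at 0.01) of the collagens and matrix glycoproteins with a row, 1 symbol per control sample, with the dashed line at 1 FPKM. The 3 symbols nearly coincide above 10 FPKM and spread apart under 1 FPKM.

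Of 20 proteoglycan and hyaluronan genes with a row, 16 were expressed and FMOD, fibromodulin, was undetected. BGN, biglycan, a small proteoglycan of the vessel wall, was at 1510.1, 1515 and 1393 FPKM (mean 1473 ± 69.2), 19.3 ± 0.745 times its relative DCN. ASPN, asporin, was at 145, 206 and 185 FPKM (mean 179 ± 31.0), lowest in control 1. CD44, the hyaluronan receptor, was at 194 ± 3.75 FPKM, HAS2, a hyaluronan synthase, at 65.3 ± 5.83, HSPG2, perlecan, at 108 ± 5.37, and VCAN, versican, at 19.8 ± 1.21.

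The protease list had 29 of 33 members expressed and 10 abundant. TIMP3, the matrix-bound inhibitor of metalloproteinases, was at 1138, 1169 and 1125 FPKM (mean 1144 ± 23.0), which was 11.8 ± 1.11 times TIMP1, and TIMP4 was undetected. PLAU, urokinase, which activates plasminogen, was at 88.2 ± 6.45 FPKM. MMP2, a gelatinase, was at 596, 631 and 574 FPKM (mean 600.5 ± 28.9), MMP14, its membrane-bound activator, at 210.1 ± 11.2, and MMP9, the other gelatinase, at 34.6 ± 4.33. The collagenase MMP1 and the stromelysin MMP3 were at 24.1 ± 1.33 and 23.6 ± 0.641 FPKM, and MMP13 and MMP10 were under 1 FPKM in each sample. CTSK, the collagen-cleaving cathepsin, was at 552, 471 and 535 FPKM (mean 519 ± 42.4).

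Of the integrins, which bind matrix proteins as pairs of α and β chains, 13 of 18 with a row were expressed. ITGB1, the shared β chain of the collagen, laminin and fibronectin receptors, was at 537, 592 and 582 FPKM (mean 570.5 ± 29.3). Of its partners, ITGA3 was at 125 ± 2.44 FPKM, ITGA5, the fibronectin receptor chain, at 90.1 ± 3.07, ITGAV at 63.8 ± 4.27, ITGA4 at 60.1 ± 2.39 and ITGA11, a collagen receptor chain, at 52.0 ± 1.37. ITGA1 was at 9.68, 11.6 and 11.1 FPKM, ITGA8, a smooth muscle chain, at 1.56 ± 0.221, and ITGA7, of contractile muscle, at 0.0333 ± 0.0193. The epithelial chain ITGB6 was undetected.

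Among receptor tyrosine kinases and the growth factor receptors listed with them, 19 of 34 were expressed, a share of 55.9% beside 61.5% of genes with a symbol. DDR2 was the only abundant member. RYK, a Wnt coreceptor, was at 91.8, 93.7 and 97.4 FPKM (mean 94.3 ± 2.89), AXL, the receptor of GAS6 in vascular cells, at 85.4, 85.7 and 81.2 FPKM (mean 84.1 ± 2.52), and EPHA2, an ephrin receptor, at 82.7, 80.5 and 84.4 FPKM (mean 82.5 ± 1.93). FGFR1 was at 59.1 ± 1.66 FPKM, EGFR at 25.1 ± 0.820 and MET at 20.2 ± 0.989, whereas FGFR2, ERBB4, KIT, CSF1R, KDR and TEK were undetected. ROR2, a receptor of noncanonical Wnt signals, was at 37.7, 37.7 and 37.4 FPKM (mean 37.6 ± 0.175), and its relative ROR1 at 0.0737 ± 0.0368.

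The vasoactive receptors let hormones and transmitters contract or relax a vessel. Of 37 with a row, 18 were expressed, 10 had counts but lay under 1 FPKM in at least 1 sample, 9 were undetected and none was abundant. At a minimum of 5 FPKM, 10 were expressed. ADRA1B, an α-adrenergic receptor, was at 81.4, 74.8 and 76.4 FPKM (mean 77.5 ± 3.45), HTR1B, a serotonin receptor, at 63.8, 74.3 and 65.0 FPKM (mean 67.7 ± 5.76), and BDKRB1, the inducible bradykinin receptor, at 65.0, 52.2 and 57.7 FPKM (mean 58.3 ± 6.44). BDKRB1 was at 2.61 ± 0.338 times the level of the constitutive receptor BDKRB2. F2R, the thrombin receptor, was at 33.8 ± 1.37 FPKM, NPR3, the natriuretic peptide clearance receptor, at 32.1 ± 2.07, and P2RY2, a nucleotide receptor, at 27.1 ± 3.53. EDNRA, the contractile endothelin receptor of smooth muscle, was at 4.70, 5.56 and 4.55 FPKM (mean 4.93 ± 0.545). AGTR1, the angiotensin receptor, was at 0.241, 0.313 and 0.373 FPKM (mean 0.309 ± 0.0661), under 1 FPKM in each sample. OXTR, the oxytocin receptor of uterine muscle, was undetected, as were EDNRB, AGTR2, AVPR1A, CHRM2, CHRM3, P2RY1, PTGER2 and PTGER3.

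Of the TGF-β and BMP receptors, 9 of 12 were expressed. TGFBR2, the ligand-binding type II receptor, was at 168, 169 and 166 FPKM (mean 167 ± 1.71), and TGFBR1, the type I receptor it activates, at 4.88, 5.65 and 5.91 FPKM (mean 5.48 ± 0.535), a ratio of 30.8 ± 3.27. BMPR2 and BMPR1A were at 15.8 ± 2.22 and 15.3 ± 0.632 FPKM, and ACVRL1, the endothelial type I receptor, at 0.256 ± 0.0640. Of the Wnt and Notch receptors, 12 of 15 were expressed and none was undetected. NOTCH2 was at 21.7 ± 0.851 FPKM, NOTCH3, the Notch receptor of arterial smooth muscle, at 5.19 ± 0.358, FZD1 at 21.4 ± 0.887, FZD6 at 21.1 ± 1.37 and the Wnt coreceptor LRP6 at 17.5, 19.6 and 19.7.

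The cytokine receptors had 18 of 21 members expressed. IL6ST, the shared signalling chain of the IL6 family, was at 61.1, 67.1 and 64.8 FPKM (mean 64.4 ± 3.04), whereas IL6R, the chain that binds IL6 itself, was at 0.131, 0.0939 and 0.0607 FPKM (mean 0.0952 ± 0.0351), under 1 FPKM in each sample. OSMR and LIFR, which bind other members of that family, were at 21.4 ± 1.33 and 13.8 ± 0.309 FPKM. TNFRSF12A, the receptor of the cytokine TWEAK, was at 73.8, 51.2 and 60.6 FPKM (mean 61.9 ± 11.3), with control 1 highest and control 2 lowest. IFNGR2 was at 53.9 ± 2.40 FPKM, TNFRSF1A at 38.7 ± 1.49, TLR4 at 0.327 ± 0.0809, and CXCR4 was undetected.

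Steroid and nuclear receptors are ligand-bound transcription factors, and 19 of 26 with a row were expressed, or 11 at a minimum of 5 FPKM. The retinoic acid receptor RARA led at 41.7, 47.1 and 37.3 FPKM (mean 42.0 ± 4.94), followed by RARG at 33.0, 30.5 and 31.2 FPKM (mean 31.6 ± 1.29), while RARB was at 0.0341, 0.117 and 0.141 FPKM (mean 0.0976 ± 0.0563). NR1D2, a clock repressor, was at 22.9 ± 1.51 FPKM, NR1H2, an oxysterol receptor, at 18.6 ± 0.782, NR2F2, an orphan receptor of stroma and veins, at 15.6 ± 1.26, and NR3C1, the glucocorticoid receptor, at 6.77 ± 0.382. PGR, the progesterone receptor, was at 1.60, 1.52 and 1.74 FPKM (mean 1.62 ± 0.109). ESR1, the estrogen receptor α, was at 0.320, 0.204 and 0.194 FPKM (mean 0.239 ± 0.0701), highest in control 1, and ESR2, the β receptor, at 0.198, 0.163 and 0.268 FPKM (mean 0.210 ± 0.0536). Both were under 1 FPKM in each sample and the ranges of the 2 overlapped. GPER1, a membrane receptor of estradiol, and RXRG were undetected. NR3C1 was at 30.0 ± 8.85 times the level of ESR1 and PGR was at 7.15 ± 2.01 times that level within samples.

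Of 13 genes of retinol handling with a row, 7 were expressed. STRA6, a membrane receptor for the plasma carrier of retinol, was at 29.5, 29.4 and 26.4 FPKM (mean 28.4 ± 1.74). CRABP2, which delivers retinoic acid to the nucleus, was at 41.4, 38.3 and 37.7 FPKM (mean 39.1 ± 2.00). RDH11 and RDH10, retinol dehydrogenases, were at 29.9 ± 0.604 and 12.4 ± 0.713 FPKM, and CYP26B1, which degrades retinoic acid, at 14.1 ± 0.425. RBP4, the carrier itself, was at 4.20 ± 0.183 FPKM, and the retinoic acid synthase ALDH1A2 at 1.90 ± 0.153. LRAT, which stores retinol as esters, CRABP1 and CYP26A1 were undetected.

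The controls carried transcripts of dividing cells beside a high level of a growth brake. All 29 mitotic genes and all 25 replication genes with a row were expressed. CDC20, an activator of the anaphase-promoting complex, was at 76.0, 77.2 and 75.0 FPKM (mean 76.1 ± 1.08), PRC1, a spindle midzone protein, at 57.3, 58.9 and 60.2 FPKM (mean 58.8 ± 1.47), and CCNB1, the mitotic cyclin, at 56.0, 50.5 and 52.5 FPKM (mean 53.0 ± 2.78). TOP2A, the topoisomerase of dividing cells, was at 20.8 ± 1.53 FPKM, CDK1, the mitotic kinase, at 9.53, 7.68 and 10.1, AURKB at 7.26 ± 1.17, and the lowest was CDC25C, a phosphatase that activates CDK1, at 1.91 ± 0.221. MKI67 is not analysed here. Of the replication genes, PCNA, the polymerase clamp, was at 101, 88.7 and 98.2 FPKM (mean 95.9 ± 6.36), and MCM7, MCM2, MCM4, MCM6 and MCM5 of the replicative helicase were at 64.1 ± 0.873, 58.0 ± 1.56, 42.0 ± 0.689, 39.1 ± 2.16 and 37.4 ± 0.903 FPKM. E2F1, a factor that drives these genes, was at 6.37 ± 0.260 FPKM.

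CDKN1A, an inhibitor of cyclin-dependent kinases, was at 785, 782 and 789.9 FPKM (mean 786 ± 3.77), 3 close values. It was at 34.1 ± 1.34 times the level of its relative CDKN1B and at 14.9 ± 0.751 times that of CCNB1. These ratios are per length. In mean CPM, which is not scaled by length, CDKN1A was at 410, CDKN1B at 47.7 and CCNB1 at 127. CDK6 and CDK4, the kinases of G1, were at 70.6 ± 4.38 and 38.4 ± 3.95 FPKM. In mean CPM their order was reversed, with CDK4 at 237 and CDK6 at 132. CCND3, a D-type cyclin, was at 67.4 ± 6.14 FPKM, MYC at 68.8 ± 5.01 and RB1, the retinoblastoma gene, at 5.88 ± 0.410. The inhibitors of the INK4 family differed, with CDKN2C at 25.6 ± 4.61 and CDKN2D at 6.16 ± 1.43 FPKM, and CDKN2A and CDKN2B at 0.685 ± 0.146 and 0.437 ± 0.0816, both under 1 FPKM in each sample. Of the G1 list, 17 of 19 members with a row were expressed.

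Of 21 immediate early genes, which respond to serum within minutes, 18 were expressed and 7 abundant. IER3, a survival gene, was at 705, 602 and 635 FPKM (mean 647 ± 52.7), FOSL2 and JUN, subunits of the AP-1 factor, at 221 ± 13.5 and 104 ± 2.62 FPKM, and DUSP1, a phosphatase of MAP kinases, at 114 ± 8.03. EGR1, a zinc finger factor, was at 169, 181 and 209 FPKM (mean 186 ± 20.6), lowest in control 1 and highest in control 3. FOS was at 37.4 ± 4.98 FPKM, whereas EGR3, FOSB and EGR2 were at 0.837 ± 0.0812, 0.959 ± 0.0485 and 0.147 ± 0.0845.

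Every inflammatory and secretory gene with a row, 24 of 24, was expressed, and 5 were abundant. CXCL8, a neutrophil chemokine, was at 165, 186 and 188 FPKM (mean 179 ± 12.7), and CSF1, the macrophage growth factor, at 169.9, 201 and 165 FPKM (mean 179 ± 19.8). IL1A was at 118, 123 and 128 FPKM (mean 123 ± 5.33) and was at 42.9 ± 3.08 times the level of IL1B within samples. IGFBP5, a binding protein of insulin-like growth factors made by smooth muscle, was at 158 ± 17.0 FPKM, the adhesion receptor ICAM1 at 121 ± 8.67, PTGES, a prostaglandin E synthase, at 96.5 ± 13.7, CSF3 at 78.5 ± 5.86, LIF at 73.4 ± 5.33, IL6 at 14.5 ± 1.53 and CCL2 at 15.5 ± 2.79. VCAM1, IL1B, TGFB3 and HGF were the lowest, at 3.24 ± 0.401, 2.87 ± 0.0884, 2.33 ± 0.424 and 1.42 ± 0.110 FPKM.

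Of 15 glycolytic genes with a row, 14 were expressed and 8 were abundant. LDHA, lactate dehydrogenase A, was at 869.6, 799.7 and 861 FPKM (mean 844 ± 38.2), GAPDH at 805, 776 and 818 FPKM (mean 800.0 ± 21.4), ALDOA, aldolase, at 667 ± 31.0, PKM, pyruvate kinase, at 485 ± 26.5, and the glucose transporter SLC2A1 at 62.3 ± 5.35. HK1, the constitutive hexokinase, was at 5.39 ± 0.217 times the level of the inducible HK2 within samples, and ENO2, the neuronal enolase, was at 0.0322 ± 0.0298 FPKM. Of 16 cholesterol genes, 15 were expressed, led by HMGCS1, an early synthesis enzyme, at 108 ± 3.65 FPKM. Among 12 reference genes, all were expressed, from EEF1A1 down to TBP at 8.10 ± 0.700 and HPRT1 at 4.36 ± 0.242 FPKM. PPIA, cyclophilin A, was at 1771, 1424 and 1577 FPKM (mean 1591 ± 174), lowest in control 2.

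Under the assumption of 4 units per fragment, the 3 control samples differed by more than counting error in a minority of genes. A Poisson chi-square test across the 3 samples, on counts in fragments with Benjamini-Hochberg adjustment and a threshold of 0.05, was passed by 2757 of 11723 genes (23.5%). Without control 2 it was passed by 977 genes, without control 1 by 1585 and without control 3 by 2481, each from only 2 samples. On counts as deposited, taking 1 unit as 1 fragment, 8065 genes passed, a majority, so the share passing rests on the assumed unit. The biological coefficient of variation that edgeR estimates over the genes kept by its filter on low counts was 9.19% on the counts as deposited. That value still holds counting error of fragments if 1 fragment is several units. The coefficient was 6.77% on counts divided by 4, where the filter was applied anew, so the genes kept may differ. Among genes passing the test in fragments the farthest sample was control 2 for 1488, control 1 for 902 and control 3 for 367. Controls 1 and 2 differed by over 1.5-fold in 297 genes, controls 1 and 3 in 180, and controls 2 and 3 in 207, with a median absolute log2 difference of 0.14, 0.10 and 0.12.

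The share of genes passing rose with level, being 9.73% at mean FPKM of 1 to 10, 33.2% at 10 to 100 and 80.5% at 100 or more, where more fragments make smaller differences detectable. The median coefficient of variation was 8.39%, 5.83% and 6.10% in those classes. COL3A1, TIMP3, CDKN1A and DSTN, an actin-severing protein at 317, 317 and 318 FPKM (mean 317 ± 0.396), had close values in the 3 samples. COL3A1 still passed the Poisson test (adjusted p of 1.26e-17), whereas CDKN1A and DSTN did not. The 10 named genes of largest relative spread included DYNLT3, a dynein light chain, at 10.3, 4.83 and 13.0 FPKM, TMEM241, a membrane protein, at 6.43, 2.64 and 5.26, SHANK3, a scaffold protein, at 6.48, 6.90 and 3.90, and RPL35A, a ribosomal protein, at 677, 372 and 559.9. The others were ABHD1, SLC48A1, SERPINI1, CREBL2, POLR2I and RNF215, and the coefficient of variation of CPM over the 10 was 28.1% to 43.8%. Control 2 was lowest for DYNLT3, TMEM241 and RPL35A, and control 3 for SHANK3.

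Of 54 listed cytoplasmic ribosomal protein genes, 19 had a row by symbol. Each of these was lowest in control 2, beside 41.8% of all expressed genes. Other lists varied, with 10 of 12 reference genes, 15 of 25 replication genes and 2 of 16 expressed proteoglycan and hyaluronan genes lowest in control 2. All 19 ribosomal protein genes were abundant and passed the spread test, which 80.5% of genes at a mean of 100 FPKM or more did. Their median log2 difference from the mean of the 3 samples was 0.15 in control 1, -0.24 in control 2 and 0.05 in control 3. RPS25 was at 499, 340.2 and 444 FPKM, RPL24 at 483, 328 and 439.5 and RPS16 at 642, 458 and 578, each lowest in control 2. The 13 mitochondrially encoded genes all passed as well, with medians of -0.05, 0.16 and -0.10 in the same order. Control 2 was the highest sample for 10 of the 13, beside 32.9% of all expressed genes, but the lowest for COX3 at 6292, 5803 and 6369 FPKM and ND3 at 1673, 1505 and 1658, and COX1 was highest in control 3. Over all expressed genes these medians lay at 0.00, -0.01 and 0.01. Ribosomal protein genes have many near-identical copies, and how fragments were divided between those is not known from the labels.

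Gene length moved with the same contrast between controls 1 and 2. Expressed genes were divided into 5 equal classes by the ratio of count to FPKM, which stands for length. In the shortest class the median log2 difference from the mean was 0.07 in control 1, -0.09 in control 2 and 0.00 in control 3, and in the longest class it was -0.03, 0.01 and 0.01. The ribosomal protein genes are short, with a median length rank of 18.4% among genes, and the part of length in their difference was not tested. The mitochondrial genes had a median length rank of 15.2%. Immediate early genes had medians of 0.01, -0.10 and 0.07, and the contractile list 0.00, 0.00 and -0.03.

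**Figure D4:**
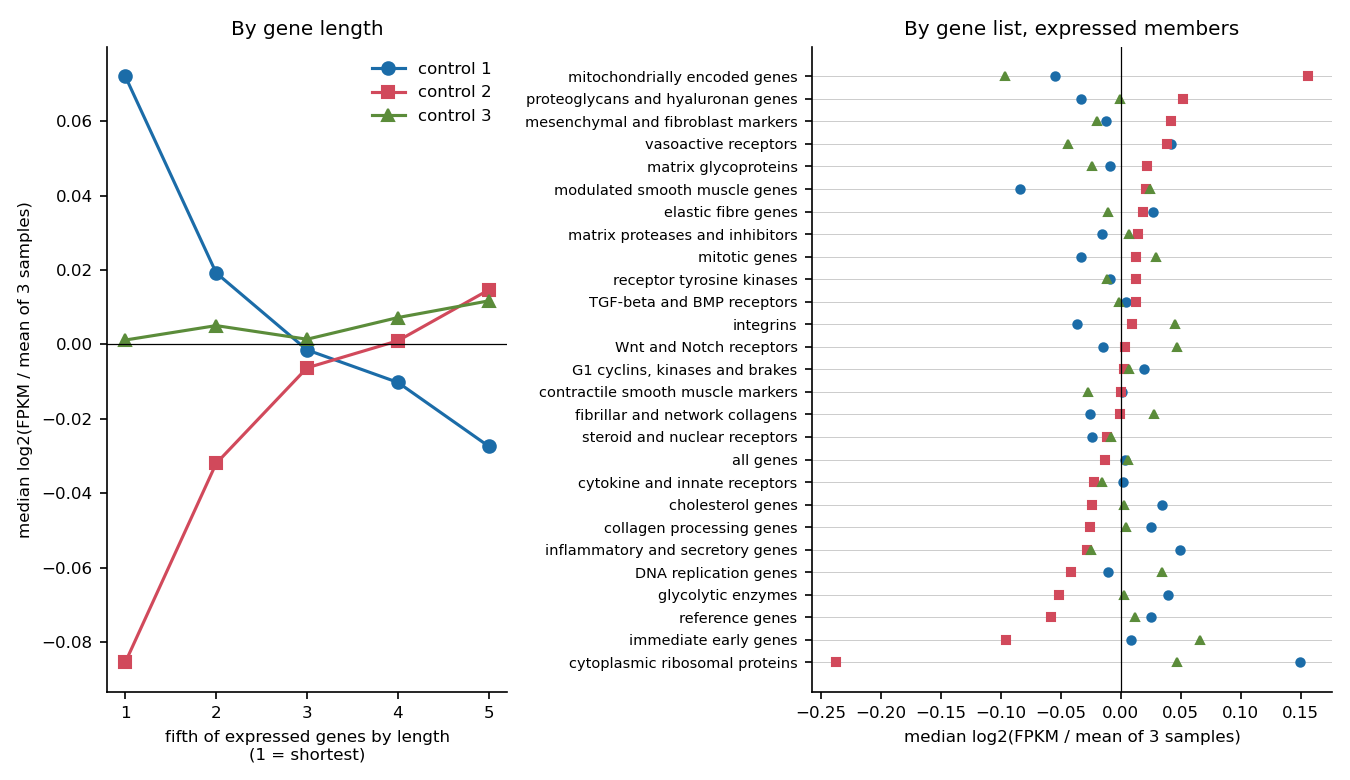
Median log2 of FPKM over the mean of the 3 control samples, by class of gene length (left) and by gene list over expressed members (right), 1 symbol per sample. Control 2 is lowest for the shortest genes and for ribosomal proteins (-0.24) and highest in the median of mitochondrial genes (0.16), while most lists lie within 0.10 of 0.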

How the data were processed

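The authors deposited FPKM values and estimated counts per gene. Cufflinks, Cuffdiff, Trim Galore and TopHat2 2.1.1 are named, with no order or role, per the submitters' processing notes. Genome build, annotation, strand and counting tool were not given in the sources used here. A small RNA kit is named for these mRNA libraries, per the labels. Deposited counts are whole numbers, and 36.7% of nonzero values up to 40 are multiples of 4. Most of these low values are thus not multiples of 4, and a fixed unit of 4 does not account for them. About 4 units per fragment was assumed all the same and was not checked against reads. It sets the detection limit, the fragment totals and the number of genes that pass the spread test. The range of count totals and the level that a count of 0 allows stand in the report. Grouping was by title, each column name gave the group and replicate, and 0 columns belonged to samples outside the series. Each control was counted as 1 sample, by its title. Every pair of controls differed by more than sampling noise under the assumed unit (chi-square per degree of freedom of 3.72 to 11.1). That cannot show whether they came from separate cultures, since technical differences also exceed sampling noise.

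From these values, means, SDs and counts of expressed genes were computed with Python 3.11.15 and pandas 2.3.3. The spread was computed in R 4.3.3 with edgeR 4.0.16 (TMM factors, filterByExpr with a minimum count of 10, intercept-only design). Each gene's counts divided by 4 were tested by a Poisson chi-square across the 3 samples with 2 degrees of freedom, with Benjamini-Hochberg adjustment. The filter acted on the counts before division, so some tested genes held few fragments under the assumed unit. With a sample left out, the test compared 2 samples with fewer degrees of freedom, so those numbers of genes are not fully comparable with the main one. The scripts were tested on simulated data. DESeq2 1.42.0, RLE factors, no filter, other FPKM minimums, TPM and leaving out each sample were alternatives.

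The members and the 36 gene lists were chosen with earlier results of these data known. Of 819 distinct listed genes, 646 had a row by symbol, 453 were expressed, 120 were abundant and 61 were undetected. The rule for named genes takes the 25 of highest mean FPKM, up to 6 highest and 4 lowest members of each list, the actins, receptors of estrogen and progesterone, STRA6, FN1, CDKN1A and EGR1, and the 10 of largest relative spread among genes of at least 5 CPM that passed the test. Other genes named, and the ratios, were chosen after their values were seen. No sequence is shown, as none was used here. Some members of the lists are counted but not reported here by name.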

Additional observations from a re-analysis of the deposited data

How the results depend on the processing

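The share of the top 50 genes was 24.3% of all counts against 28.9% of summed FPKM. The biological coefficient of variation, 9.19% with TMM factors, was 9.18% with RLE factors, 9.62% without a filter, 8.70% as DESeq2's median dispersion and 6.77% on counts divided by 4, an alternative chosen after seeing the data. It ranged from 7.49% to 10.8% when each sample was left out. Genes passing the Poisson test numbered 8065 on counts as deposited against 2757 in fragments, and 977 to 2481 when each sample was left out. Genes expressed ranged from 7672 at a minimum of 5 FPKM to 10717 at 0.5. At the minimum of 5 FPKM the expressed members of 31 of 36 lists stayed within 1.5 times, while pericyte markers went from 3 to 1, neural and glial markers from 2 to 1, endometrial markers from 4 to 1, vasoactive receptors from 18 to 10 and nuclear receptors from 19 to 11. TPM rescales every gene and moved 33 of 36 named levels by more than their SD, whereas TMM rescaling moved 0 of 36. No paired analysis was possible because only the control group was used. The species, the identifier-only genes and the unit of the counts limit these levels. Values under 1 FPKM often rest on few fragments. So can higher values of short genes, such as BGLAP with counts of 200, 149 and 184 units.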

Other observations

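Of the genes with a symbol, 78 reached 500 FPKM or more in each control sample, and 28 of these stood on none of the gene lists. They are given here as values and were chosen after their levels were seen. Secreted and surface proteins were among them. CLU, the extracellular chaperone clusterin, was at 1340.1, 1333 and 1175 FPKM (mean 1283 ± 93.4). CXCL5, a neutrophil chemokine, was at 1089.8, 1024 and 1069 FPKM (mean 1061 ± 33.7), and GJA1, the gap junction protein connexin of vascular smooth muscle, at 1018, 1127 and 1096 FPKM (mean 1081 ± 56.3). FSTL1, a secreted follistatin-like glycoprotein, was at 1049, 1115 and 1074 FPKM (mean 1079 ± 33.1), and CCDC80, a matrix protein, at 918, 850.0 and 845 FPKM (mean 871 ± 41.0).

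Calcium-binding proteins of the S100 family were abundant too. S100A11 was at 1203, 951 and 1087 FPKM (mean 1080.1 ± 126), S100A9, known from neutrophils and monocytes, at 1009, 815 and 819 FPKM (mean 881 ± 111), and S100A6 at 765, 548 and 685 FPKM (mean 666 ± 109.8), each highest in control 1. Of the 18 leukocyte markers with a row, 11 had counts of 0 in all 3 samples, among them SPI1, ITGB2 and CSF1R. LCP1, CORO1A and GATA2 were the 3 expressed members. The source of S100A9 was not tested. Actin-linked genes included TMSB10 and PFN1, which bind actin monomers, at 1567 ± 189 and 1178 ± 92.3 FPKM, MYH9, a non-muscle myosin heavy chain, at 663 ± 37.3, and TAGLN2, a transgelin, at 650.3 ± 18.1. ANKRD1, an ankyrin repeat protein of muscle that is also known as a target of YAP, was at 528, 511 and 554 FPKM (mean 531 ± 21.6). Folding proteins of the endoplasmic reticulum, HSPA5, HSP90B1 and PDIA6, were at 562 ± 20.9, 519.9 ± 17.3 and 551 ± 14.1 FPKM.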
